A study of Apis mellifera with 6 samples.

Results

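The models described here are 48 gene models of the honeybee (Apis mellifera) whose RNA was highest in the hypopharyngeal gland of pollen-fed workers that had no growing brood to feed. They were chosen from the counts themselves among 10704 listed models. A model was kept when its lower Pollen library held at least 2 times the level of the highest of the 4 Honey and Brood libraries. It also needed an ID made of a gene number, fewer than 10000 raw fragments in every library and a largest group mean of 30 or more, and 5018 models met these 3 conditions. Levels are scaled fragments, that is raw fragment counts divided by a size factor for each library. The model gene8632 was left out by name. The model gene12571 met the inequality only as 0 against 0, with 129 raw fragments in Pollen 2 and 0 elsewhere, and was not counted.

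The hypopharyngeal gland is a paired gland in the head of the worker bee. In nurse bees it synthesises and secretes the protein fraction of brood food and royal jelly, and in foragers it turns to enzymes that process nectar. Protein from pollen is known to be needed for the gland to develop, and signals from the brood are known to act on its activity. The study crossed these conditions in part, so that a gland with pollen but without brood could be set beside a gland with neither and a gland with both.

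Of the 6 colonies, 2 formed each group, and each library came from worker glands. Honey colonies received honey alone and their queens were caged so that brood dwindled. Pollen colonies received honey and abundant rape pollen, again with caged queens. Brood colonies received honey and abundant rape pollen, and their queens laid freely. Sources conflict on age. The series text puts every bee at 9 days, but the label of each sample differs: Pollen bees were 9 or 10 days old by it, Honey bees 11 or 12 and Brood bees 13 or 14, with replicate 2 the older each time. By those labels the Pollen bees were the youngest, and pollen without brood cannot be told apart from age. No strain, and no number of bees per library, is stated in the labels.

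Libraries held 2764870 to 4153354 counted fragments, and the 10 most abundant models of each library took 26.8% to 28.0% of them in Honey, 49.9% to 53.6% in Pollen and 66.9% to 69.1% in Brood. The size factors ran from 0.692 in Brood 1 to 2.02 in Honey 1, so the same raw count stood for a higher scaled level in Brood than in Honey. None of the 10704 IDs matched a name in the reference table (0 matches), so the models are given by ID and position and no function is assigned to any of them. For the same reason the tissue could not be checked against marker genes of the gland, the fat body, nerve or muscle. In whole glands, fewer cells of a type and less RNA per cell cannot be told apart.

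Together, the 48 models were a small part of the RNA. Their summed share of counted fragments was 0.254% in Honey 1 and 0.282% in Honey 2, against 0.545% and 0.750% in the Pollen libraries and 0.132% and 0.109% in the Brood libraries. The 95% Wilson interval of the share was widest in Pollen 2, at 0.741% to 0.759%, and such intervals cover counting error only. On the scaled level, which discounts the few very abundant models, the sums were 5187 and 7097 in Honey, 23767 and 26548 in Pollen and 6593 and 5122 in Brood. Honey and Brood overlapped in this sum, at 6142 ± 1350 and 5857 ± 1040 (SD, n = 2 each), whereas by share of fragments both Brood libraries lay below both Honey libraries. The high Pollen values follow from the choice of the models and carry no test.

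**Figure D1:**
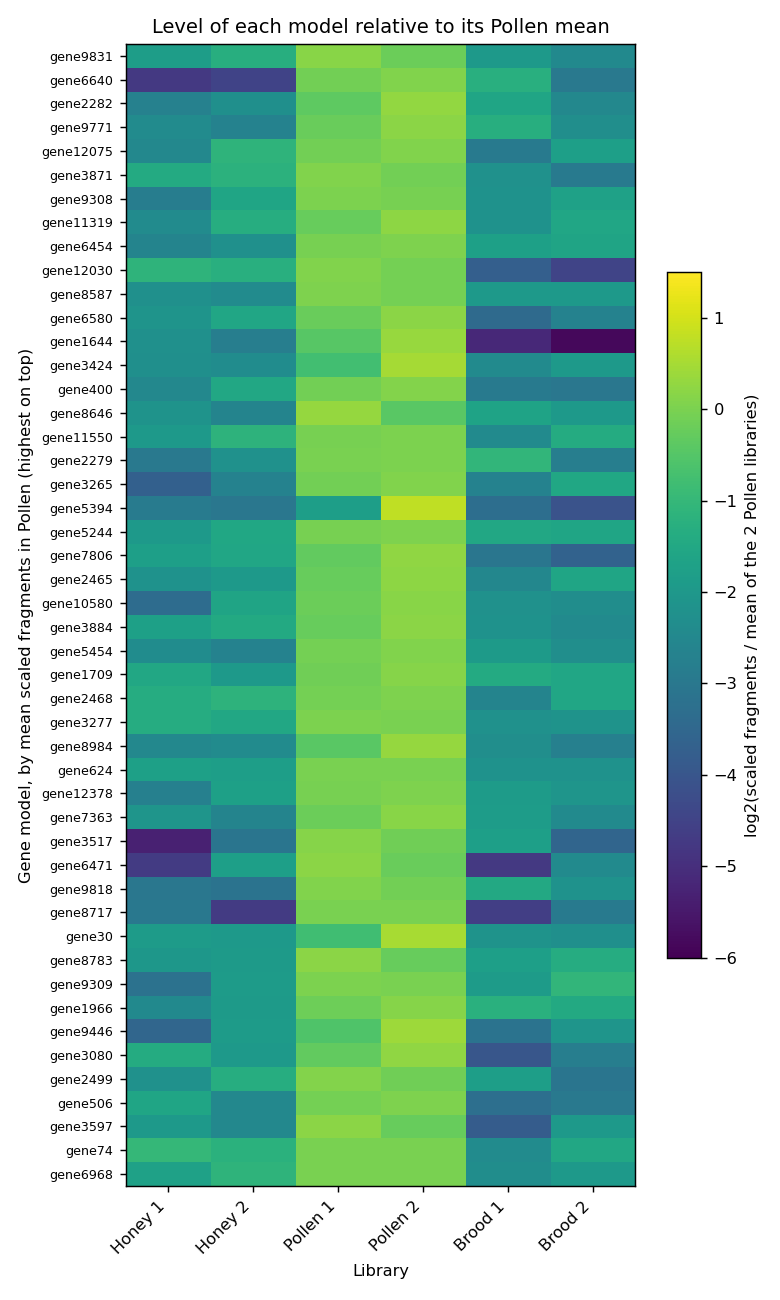
Level of each of the 48 models (rows, ordered by mean scaled fragments in Pollen) in each of the 6 libraries (columns), as log2 of the level over the model's mean of both Pollen libraries. The Pollen columns are near 0 by construction; gene1644 is darkest in both Brood libraries, gene3517 in Honey 1 and gene8717 in Honey 2, and gene5394 differs most between the Pollen libraries.

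By mean scaled level in Pollen, 6 models reached 1000 or more, 23 lay from 100 to under 1000 and 19 lay under 100. The lower Pollen library exceeded the highest other library by a median of 2.40 times, from 2.01 to 7.52 times. Relative to the group means, Pollen was 2.15 to 24.5 times the Honey level (median 4.33) and 2.53 to 43.3 times the Brood level (median 4.40). The library that set the limit was Honey 2 for 17 models, Brood 1 for 13, and Honey 1 and Brood 2 for 9 each. The comparisons with Honey and with Brood share the Pollen libraries. Of the 191 models whose lower Pollen library was at least 2 times the higher Honey library, the 48 were 25.1%, and of the 1135 with the same gap to Brood they were 4.23%.

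**Figure D2:**
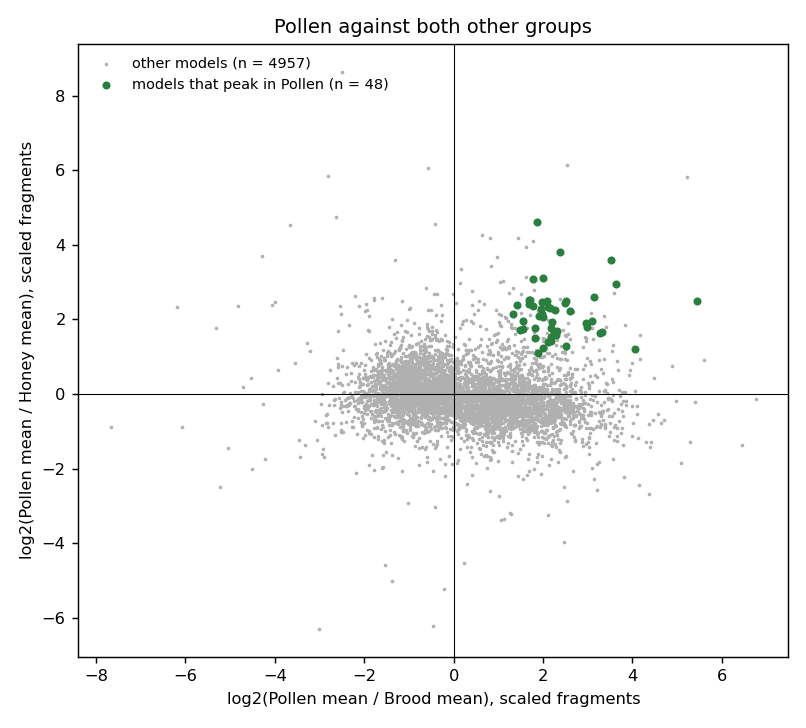
Ratio of the Pollen mean to the Honey mean (vertical) and to the Brood mean (horizontal), both as log2 of scaled fragments, for 5005 of the 5018 models (13 with a group at 0 are left out). Green points are the 48 models, which sit in the upper right by the rule that chose them; they hold both the model with a Pollen level 24.5 times that of Honey and the model with 43.3 times that of Brood.

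The most abundant of the 48 was gene9831, on linkage group 12 at 9282409 to 9307579. Its scaled level was 1112 and 1603 in Honey (replicate 1 first, here and below), 4424 and 3460 in Pollen and 1012 and 724 in Brood. Its Brood libraries both lay below its Honey libraries, but the difference was not called (adjusted p = 0.359, edgeR). The second was gene6640, on linkage group 8 at 6503709 to 6504171, at 97.5 and 118 in Honey, 2473 and 2821 in Pollen and 1107 and 338 in Brood. It was the model lowest in Honey relative to Pollen, its Brood libraries were both above Honey, and they differed from each other more than the Honey libraries did. With a length of 351 bases it was also the shortest of the 48, and per kilobase it had the highest level of them in Pollen, 7541 scaled fragments per kb, followed by gene9831 at 966 and gene2282 at 900.

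The model gene2282, on linkage group 2 at 13465249 to 13480649, had 392 and 529 scaled fragments in Honey, 1999 and 3110 in Pollen and 841 and 451 in Brood. Honey and Brood overlapped, and a model on the opposite strand shares 1755 bases of its span. The model gene9771, on linkage group 12 at 8622246 to 8650367, had 456 and 370 in Honey, 2039 and 2681 in Pollen and 964 and 485 in Brood. Here the Brood libraries lay above the Honey libraries, the higher Brood value coming from Brood 1 as in gene6640 and gene2282. These 3 models thus kept an order in which Brood 1 was the closest library to Pollen.

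The model gene12075, on linkage group 16 at 6163832 to 6181329, had 375 and 968 in Honey, 1975 and 2220 in Pollen and 279 and 612 in Brood, so that replicates differed more than Honey and Brood did. It shares 1569 bases with gene12074 on the opposite strand, at 6121721 to 6165400, which had 556 and 1089 in Honey, 2170 and 2390 in Pollen and 263 and 483 in Brood. That model missed the rule narrowly, with a lower Pollen library 1.99 times the highest other one. The sources used here do not state a stranded count, and fragments of the shared bases may not be separable. The model gene3871, on linkage group 4 at 12260384 to 12291205, had 575 and 671 in Honey, 1612 and 1436 in Pollen and 329 and 200 in Brood. For gene3871 all 3 groups were separate, with Honey between Pollen and Brood.

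Only gene9308 and gene9309 were neighbours among the 48 with no listed model between them. They lie on the same strand of linkage group 11, gene9308 at 13890684 to 13893718 and gene9309 at 13893991 to 13896667, with 272 bases between them. The model gene9308 had 133 and 316 scaled fragments in Honey, 966 and 933 in Pollen and 210 and 292 in Brood. The model gene9309 had 5.94 and 14.6, 53.5 and 52.9, and 14.5 and 25.4 in the same order. In both, replicate 2 was above replicate 1 in Honey and in Brood while the Pollen libraries were nearly equal, and per kilobase gene9308 was at 354 and gene9309 at 35.4 in Pollen. Fragments of transcripts that run through both would count for either, so they are not shown to be independent members. The model gene11319, on linkage group 15 at 5295866 to 5299429, had a like order, with 170 and 350 in Honey, 740 and 1024 in Pollen and 197 and 302 in Brood.

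**Figure D3:**
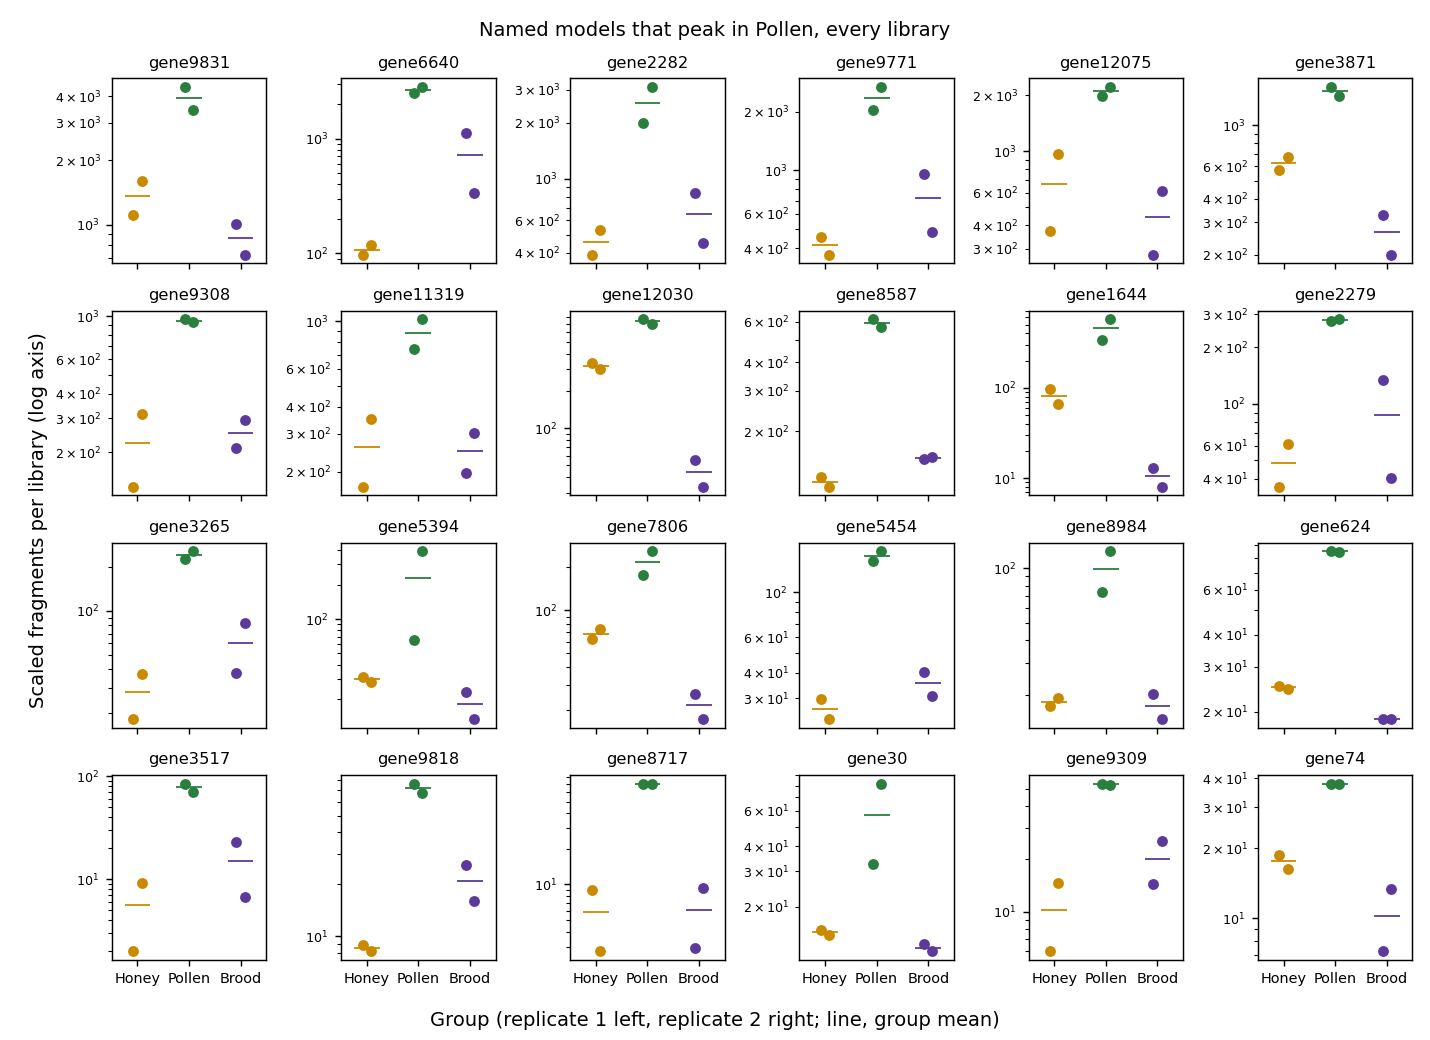
Scaled fragments per library on a log axis for 24 of the models described in the text, 1 panel a model, with replicate 1 left and replicate 2 right and a line at the group mean. Pollen lies above the other groups in every panel by the rule; the place of Brood against Honey varies, from above it in gene6640 (338 and 1107 against 97.5 and 118) to below it in gene1644 (8.01 and 13.0 against 65.5 and 97.5).

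The gap between Pollen and all other libraries was widest in gene8717, on linkage group 11 at 4697376 to 4885429, where the lower Pollen library was 7.52 times the highest other library. Its scaled levels were 8.91 and 2.73 in Honey, 70.3 and 70.9 in Pollen and 2.89 and 9.35 in Brood. These rest on 18 and 3 raw fragments in Honey 1 and 2 and on 2 and 7 in Brood 1 and 2, and the level per kilobase was low, at 8.29 in Pollen. In gene8587, on linkage group 11 at 1605596 to 1664534, the factor was 3.69, with 127 and 115 in Honey, 615 and 571 in Pollen and 152 and 155 in Brood. This model combined a wide gap with close replicates in all 3 groups. The factor was 3.63 for gene8984 on linkage group 11 at 11187919 to 11217829 (17.3 and 19.1 in Honey, 73.5 and 124 in Pollen, 20.2 and 14.7 in Brood). It overlaps 3 listed models, of which gene8981, on the opposite strand, had 2112 and 3175 scaled fragments in Pollen and 276 to 1231 in the other libraries, and their fragments may not be separable over the 3307 bases they share.

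The model gene5454, on linkage group 6 at 16100682 to 16105894, had 29.7 and 23.7 scaled fragments in Honey, 144 and 160 in Pollen and 40.5 and 30.7 in Brood. It overlaps no listed model. The model gene624, on linkage group 1 at 9733337 to 9736970, had 25.2 and 24.6 in Honey, 85.0 and 84.8 in Pollen and 18.8 and 18.7 in Brood, the closest Pollen replicates of the 48. It lies within gene620 on the opposite strand, whose scaled levels were 291 and 440 in Honey, 342 and 305 in Pollen and 117 and 84.1 in Brood, so that its Honey and Pollen libraries overlapped.

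Pollen replicates agreed less well in a few models. In gene5394, on linkage group 6 at 15230304 to 15238018, Pollen 1 was at 66.1 and Pollen 2 at 390, a ratio of 5.90, against 31.2 and 28.2 in Honey and 23.1 and 13.4 in Brood. In gene30, on linkage group 1 at 676072 to 727981, they were at 32.5 and 81.8, a ratio of 2.51, against 15.3 and 14.6 in Honey and 13.0 and 12.0 in Brood. For these, how far Pollen stood above the rest rests mostly on Pollen 2. The median ratio of the higher to the lower Pollen library was 1.19 over the 48 and 1.26 over all models with the same floor, and Pollen 2 was the higher in 33 of the 48 (68.8%), against 54.8% of all. The rule takes the lower Pollen library and so favours close Pollen replicates. In the other groups the 48 were less equal than all models, with median ratios of 1.41 against 1.24 in Honey and 1.58 against 1.34 in Brood. The rule also sets the 48 low there, at median levels per kilobase of 14.4 against 36.7 in Honey and 15.5 against 35.3 in Brood. Whether the low counts account for the wider ratios was not tested.

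Nearest to the limit on the inside were gene74 (2.01 times), gene12075 (2.04) and gene2279 (2.06). The model gene74, on linkage group 1 at 1508535 to 1522872, had 18.8 and 16.4 in Honey, 37.8 and 37.9 in Pollen and 7.23 and 13.4 in Brood. The model gene2279, on linkage group 2 at 13426759 to 13433340, had 36.1 and 61.0, 277 and 283, and 134 and 40.1. For gene74 the limit was set by Honey 1, and for gene2279 by Brood 1. Just outside were gene10117 (1.9998), gene12074 (1.99) and gene7718 (1.98). In gene10117 the levels were 164 and 166 in Honey, 423 and 379 in Pollen and 149 and 190 in Brood. In gene7718 they were 29.7 and 28.2, 74.5 and 156, and 37.6 and 16.0. No test is given at this limit, and the values on both sides of it are alike.

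The comparison of Brood with Honey was not used to choose the models, although the rule holds both groups to at most the lower Pollen value divided by 2. All 48 passed the filter on low counts, which they could do through the Pollen libraries alone. With edgeR's quasi-likelihood test and Benjamini-Hochberg adjustment over 6943 models at a threshold of 0.05, 8 of the 48 were higher in Brood and 5 were lower. Over all models tested, 28.4% were called higher and 28.8% lower, 57.2% in all, against 27.1% of the 48. The median log2 change of the 48 was 0.19, beside 0.05 over all models. By scaled level, the Brood libraries lay below both Honey libraries in 17 of the 48 (35.4%, against 44.5% of all models tested). They lay above them in 10 (20.8%, against 34.9%). The other 21 (43.8%) overlapped, a larger part than the remainder of all models tested. The counts depended on single libraries: without Honey 1, 2 models were called higher, and without Brood 1, 4 were, while without Honey 2 the models called lower were 3. With library totals in place of TMM 1 was higher and 22 were lower, but the median log2 change of all models was then itself -1.30. With the length trend removed, 9 of the 48 were called higher and 1 lower, but most of the 9 were other models. Of the 8 called higher in the main fit, gene6454 (log2 change 1.19) and gene9771 (2.60) kept their call. Of the 5 called lower, gene12030 (-1.25) did.

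Among the 5 that were lower in Brood, gene1644 on linkage group 1 at 28546478 to 28563379 had 97.5 and 65.5 scaled fragments in Honey, 336 and 575 in Pollen and 13.0 and 8.01 in Brood. It fell by 2.72 on the log2 scale from Honey to Brood (SE 0.45; adjusted p = 0.000361, edgeR), a 6.60-fold difference (95% interval 3.36 to 12.9), and its log2 change was -0.94 (adjusted p = 0.127, edgeR) once the trend with model length was removed. The model gene12030, on linkage group 16 at 4873232 to 4895615, had 336 and 303 in Honey, 769 and 702 in Pollen and 54.9 and 33.4 in Brood, a fall to Brood of 6.11-fold (3.64 to 10.3; adjusted p = 9.51e-05, edgeR). Both thus ran in the order Pollen, Honey, Brood with no overlap between groups. The gene12030 call was kept in all 16 alternatives, with log2 changes from -3.98 to -1.25.

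The model gene7806, on linkage group 10 at 4420283 to 4484574, had 63.3 and 73.7 in Honey, 175 and 257 in Pollen and 26.0 and 17.4 in Brood, a 2.66-fold fall from Honey to Brood (1.56 to 4.54; adjusted p = 0.00515, edgeR). Its call held when any library was left out, as did those of gene1644 and gene12030, but it was lost with the length trend removed (log2 change -0.35) and with age as a covariate (-1.73; adjusted p = 0.0629, edgeR). By the labels, age within a group follows the replicate number. The age term therefore rests on the difference between replicates 1 and 2, carried across the groups, and does not isolate age. The other 2 called lower, gene3871 and gene6580, were 1.98-fold and 1.91-fold lower. With age as a covariate gene6580 kept its call (log2 change -1.94) and gene3871 did not (-0.52). The model gene6580, on linkage group 8 at 5256810 to 5279323, had 117 and 171 scaled fragments in Honey, 436 and 573 in Pollen and 47.7 and 78.8 in Brood, again with 3 separate groups. The call of gene3871 was lost without Honey 1 (log2 change -1.07), Honey 2 (-0.89) or Brood 2 (-0.67), and that of gene6580 without Honey 2 (-0.66) or Brood 1 (-0.63).

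Among the 8 that were higher in Brood, gene6640 changed most, with a log2 change of 3.00 (SE 0.50; adjusted p = 0.000369, edgeR), which is 7.99-fold (3.79 to 16.9). It was the only one of the 8 whose call held without each library in turn, at log2 changes from 1.88 to 3.61, and it was 1.07 (adjusted p = 0.0703, edgeR) with the length trend removed. The model gene9818, on linkage group 12 at 9062182 to 9069744, had 8.91 and 8.19 in Honey, 76.6 and 67.9 in Pollen and 26.0 and 16.0 in Brood. It was 2.85-fold higher in Brood (1.47 to 5.53; adjusted p = 0.0112, edgeR). It lies inside gene9817 on the opposite strand, and its call was lost without Brood 1 (log2 change 1.11), with age as a covariate (2.23), in DESeq2's Wald test (1.41), with library totals (0.15) and with the length trend removed (0.46).

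The model gene3265, on linkage group 4 at 1622340 to 1623494, had 18.3 and 37.3 in Honey, 226 and 254 in Pollen and 37.6 and 82.8 in Brood. It was 2.66-fold higher in Brood (1.42 to 4.99; adjusted p = 0.0123, edgeR). Its call was lost with library totals (log2 change 0.094), with age as a covariate (0.052) and with limma on log2(FPKM + 0.1) (1.33). It is 490 bases long, its call was lost without Honey 1 (log2 change 0.96) or Brood 2 (0.74), and its log2 change was -0.18 with the length trend removed. The model gene3517, on linkage group 4 at 5299592 to 5301016, lies inside gene3509 on the same strand, and their fragments may not be separable. The model gene3509 had 29.7 and 46.4 in Honey, 157 and 81.8 in Pollen and 57.8 and 28.0 in Brood. Levels of gene3517 were 1.98 and 9.10 in Honey, 85.0 and 70.9 in Pollen and 23.1 and 6.68 in Brood. Its call was lost with library totals (log2 change 0.49), DESeq2's Wald test (1.67) and age as a covariate (2.22). Its log2 change of 1.84 rests on 4 and 10 raw fragments in Honey and 16 and 5 in Brood, its groups overlap, and it was not called without Honey 1 (0.95) or Brood 1 (0.70).

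The other 4 that were called higher in Brood were gene6454, gene9771, gene9309 and gene1966, with log2 changes of 0.98, 1.06, 1.30 and 1.08. With library totals these were -0.36, -0.33, -0.03 and -0.26, all above the median of all models in that fit (-1.30), which the scaling shifts as a whole. The model gene6454, on linkage group 8 at 2814220 to 2817913, had 142 and 184 scaled fragments in Honey, 844 and 894 in Pollen and 259 and 280 in Brood. Its replicates were close in each group and Brood lay wholly between Honey and Pollen. With age as a covariate its log2 change was 0.68 and was not called. It shares 1208 bases with gene6455 on the opposite strand, and fragments of the shared bases may not be separable. The model gene6455 had 98.5 and 106 in Honey, 107 and 136 in Pollen and 225 and 154 in Brood, so it too was higher in Brood than in Honey. The model gene1966, on linkage group 2 at 8766544 to 8777126, had 9.40 and 13.7, 46.2 and 55.9, and 21.7 and 18.7 in the same order. The call was lost without Honey 1 for gene6454 (0.82), without Honey 1 (1.24), Honey 2 (0.90) or Brood 1 (0.46) for gene9771, and without Honey 1 (0.72) or Brood 2 (0.84) for gene9309. For gene1966 it was lost whichever library was left out, at log2 changes from 0.82 to 1.32. The call of gene9771 was also lost with age as a covariate (1.69). It was lost too with limma on log2(FPKM + 1) (0.36) and on log2(FPKM + 0.1) (0.38). Of 16 alternatives, gene6454 kept its call in 13, gene9771 in 9, gene9309 in 6 and gene1966 in 2.

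**Figure D4:**
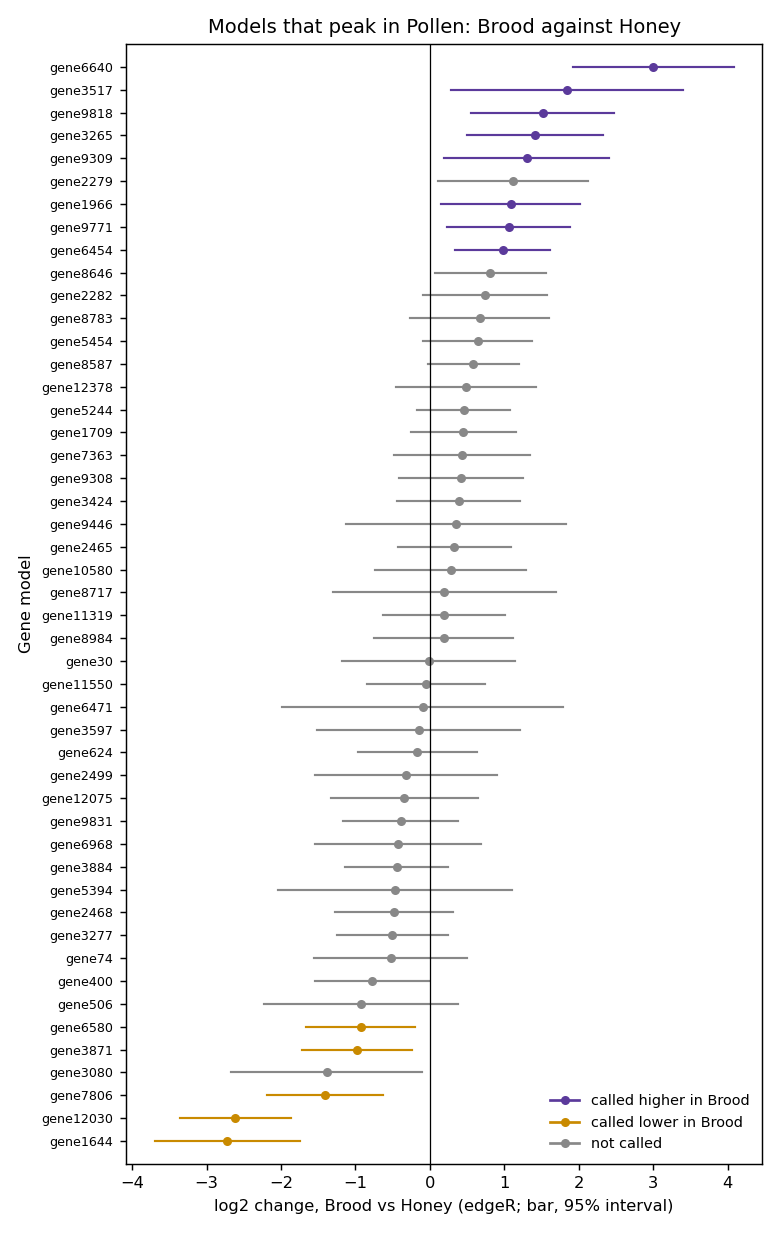
Log2 change from Honey to Brood with its 95% interval for each of the 48 models, in the order of the change (edgeR, 2 libraries a group). Purple marks the 8 called higher in Brood, led by gene6640 at 3.00, ochre the 5 called lower, down to gene1644 at -2.72, and grey the 35 that were not called, most with wide intervals.

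For the other 35 models no difference between Brood and Honey was called, with adjusted p-values (edgeR) of 0.0548 to 0.977. This does not show that they were level, because the 95% interval reached a 2-fold difference in at least 1 direction for 33 of the 35. At an unadjusted p under 0.05 (edgeR), 17 of the 48 (35.4%) differed rather than 13. This is below the 57.2% of all models tested that were called even after adjustment. Of all 48, 13 had fewer than 10 raw fragments in at least 1 library, and these include gene1644, gene3517 and gene9818, which were called. Per kilobase, the median level of the 48 was 14.4 scaled fragments in Honey, 15.5 in Brood and 57.7 in Pollen. Over all models with the same floor it was 36.7, 35.3 and 36.1, and the rule itself sets the 48 low in Honey and Brood and high in Pollen.

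The model gene400, on linkage group 1 at 6202005 to 6243093, had 74.2 and 149 scaled fragments in Honey, 394 and 451 in Pollen and 56.4 and 52.1 in Brood. The model gene8646, on linkage group 11 at 2674460 to 2678190, had 92.1 and 66.4, 511 and 305, and 130 and 107. Brood lay below Honey in gene400 and above it in gene8646, and neither difference was called. On the opposite strand, gene8645 shares 1179 bases with gene8646, and fragments of these may not be separable. It had 95.5 and 173 in Honey, 198 and 157 in Pollen and 225 and 377 in Brood. The model gene3424, on linkage group 4 at 4010745 to 4019541, had 93.0 and 86.5 in Honey, 263 and 627 in Pollen and 83.8 and 115 in Brood, so its Pollen libraries differed by 2.38 times. In gene11550, on linkage group 15 at 8151677 to 8153704, the levels were 84.6 and 149, 323 and 335, and 62.1 and 126 in the order Honey, Pollen, Brood, with replicate 2 the higher in all 3 groups. The model gene5244, on linkage group 6 at 9897109 to 9914277, had 56.4 and 77.4 in Honey, 216 and 231 in Pollen and 79.5 and 73.4 in Brood, with overlap between Honey and Brood. It lies wholly inside gene5243 on the opposite strand, and their fragments may not be separable. Levels of gene5243 were 146 and 129 in Honey, 156 and 122 in Pollen and 60.7 and 40.1 in Brood.

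Some of the 48 lay near each other. On linkage group 2, gene2465 at 15381137 to 15382773 had 46.5 and 53.7 in Honey, 176 and 244 in Pollen and 36.1 and 69.4 in Brood. At 15396452 to 15406168 on the opposite strand, gene2468 had 49.0 and 56.4, 120 and 131, and 20.2 and 42.7. Both had the higher Brood value in Brood 2, and only gene2468 had both Brood libraries below Honey, but neither was called between Brood and Honey (adjusted p = 0.429 and 0.268, edgeR). On linkage group 4, gene3884 at 12362599 to 12393304 had 53.0 and 64.6 in Honey, 150 and 204 in Pollen and 39.0 and 33.4 in Brood. The order was that of gene3871 on the same strand, 71393 bases away. Unlike gene3871, gene3884 was not called between Brood and Honey (log2 change -0.45; adjusted p = 0.244, edgeR).

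The least abundant models rested on few fragments outside Pollen. The model gene6471, on linkage group 8 at 2924911 to 2928397, had 2.97 and 22.8 in Honey, 88.2 and 66.9 in Pollen and 2.89 and 14.7 in Brood, from 6 and 25 raw fragments in Honey and 2 and 11 in Brood. Its Honey libraries differed by 7.66 times, the most of the 48, as did its Brood libraries, by 5.08 times. The model gene3080, on linkage group 3 at 11243858 to 11252502, had 17.8 and 11.8 in Honey, 37.8 and 54.9 in Pollen and 2.89 and 6.68 in Brood. Its Brood level was not called lower (log2 change -1.39; adjusted p = 0.0600, edgeR). The least abundant of all in Pollen, gene6968 on linkage group 8 at 10646141 to 10655236, had 10.9 and 16.4, 35.7 and 35.9, and 7.23 and 9.35 in the order Honey, Pollen, Brood. Of the rest, gene10580, gene1709, gene3277, gene12378, gene7363, gene8783, gene9446, gene2499, gene506 and gene3597 had Pollen means from 41.1 to 202 scaled fragments, and none was called between Brood and Honey.

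Position and size were not part of the rule. The 48 models were 0.957% of the 5018 and lay on 13 of the 16 linkage groups and 1 unplaced scaffold. Linkage groups 4 and 11 held 7 each, 2.33% and 1.70% of their models with the same floor, and linkage groups 5, 7 and 13 held none. Besides gene9308 and gene9309, 4 pairs lay within 200 kb of each other, with 2 to 16 listed models between them. Of the 48, 15 overlapped another listed model, 31.3% against 23.3% of all, and 13 of these did so on the opposite strand.

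The models spanned long stretches of the genome. Their median span from first to last base was 14.5 kb (quartiles 3.72 and 28.6 kb), against 4.51 kb (2.21 and 11.4 kb) for all 5018, while the median model length was 2560 bases against 2124. The longest span, 406 kb, belonged to gene3597 on linkage group 4 at 6930584 to 7336764, whose model length is 4755 bases. A long span was not particular to the Pollen peak. The same rule with Honey as the high group gave 81 models with a median span of 16.6 kb, and with Brood as the high group it gave 361 models with a median of 1.60 kb and a model length of 951 bases. With a group as the low one, the rule gave 9 models for Pollen, 96 for Honey and 954 for Brood, the smallest count of the 3 being that of Pollen in both directions.

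**Figure D5:**
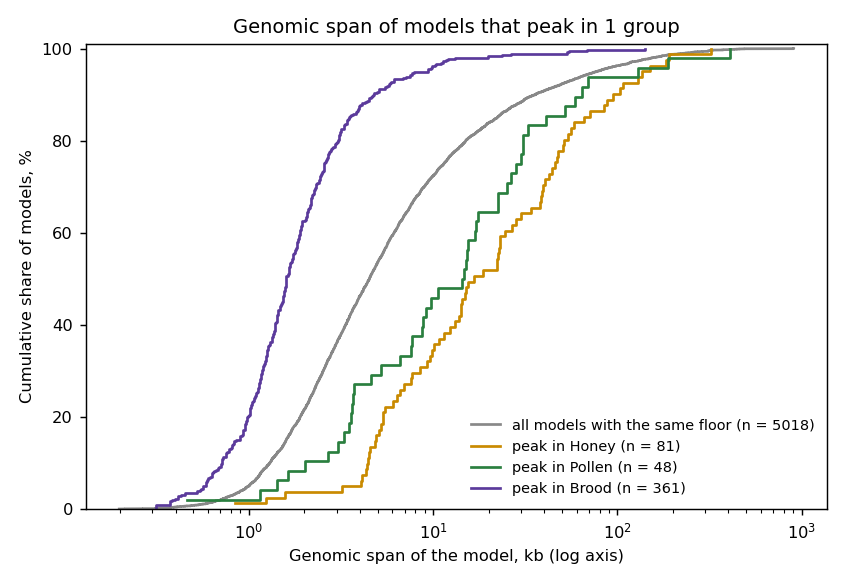
Cumulative share of models by genomic span (kb, log axis) for the models that peak in Honey, Pollen or Brood by the same rule and for all models with the same floor. The Pollen and Honey curves lie to the right (medians 14.5 and 16.6 kb) and the Brood curve to the left (1.60 kb) of all models (4.51 kb).

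Membership itself depended on the scaling. With TMM-scaled totals 52 models met the rule, 43 of them among the 48, and with the deposited FPKM 45 did, 40 among the 48. Those of the 48 that missed it with TMM were gene1966, gene2279, gene8783, gene9309 and gene9771. Of these, gene1966, gene9309 and gene9771 were called higher in Brood, in a test that used TMM. The model gene6640 missed the rule with the deposited FPKM and with the authors' normalized count. With each library's trend over model length removed the number was 47, but only 33 were among the 48. With library totals alone it was 18, with 13 among the 48. There were 7 models that met the rule under all 5 other scalings tried, namely gene3265, gene3517, gene5454, gene6454, gene6471, gene8717 and gene9818. With 1 library fewer the rule has less to satisfy, and 57 to 148 models met it, with 88 without Honey 2, 148 without Pollen 1, 93 without Pollen 2 and 74 without Brood 2.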

How the data were processed

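Gland RNA was sequenced from NEBNext Ultra libraries, as the labels' protocols state. The aligner, counting tool, annotation, genome build and use of strand are not given in the sources used here. Per the file headers, the authors gave for each model a raw fragment count, a normalized count (treated here as a signal, and mostly the raw count times 1 factor per library) and an FPKM value. Each file lists 10344 models with a gene number and 360 added by the authors. Linkage groups follow the order of the sequence identifiers, and coordinates are those of the files. IDs were compared with 12398 genes of Amel_HAv3.1. No sequence is shown, because no genome of the files' build was at hand.

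Size factors were medians of ratios over the 4633 models with 10 or more fragments in all 6 libraries. Raw counts of 6943 models (filterByExpr, minimum count 10) were scaled by TMM and tested two-sided in edgeR 4.0.16 (R 4.3.3), with 3 group means in 1 fit and no replicate block. TMM set Brood 0.25 higher on the log2 scale relative to Honey than the size factors did, so a fold change need not equal the ratio of scaled levels. SEs were the log2 change over the square root of its F and restate the test. Alternatives used DESeq2 1.42.0 and limma 3.58.1. Groups of 2 cannot reach an exact permutation p under 0.333. Replicates were separate colonies, and their counts differed by 25.7 to 104 times the sampling variance. Replicate numbers were not taken as pairs of libraries across groups.

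The models, lists and tests were chosen with earlier results of these data known. Models given with full values were the 8 highest in Pollen, the 6 with the widest gap, the calls in Brood vs Honey, the 3 nearest the limit on either side, neighbours, and the 2 with the most and the 2 with the least equal Pollen replicates. Of the calls, the rule named the 4 largest in each direction, and gene6580, gene6454, gene9771, gene9309 and gene1966 were added so that every call is given. The remaining models, and models outside the 48 that overlap them, were named after their values were seen.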

Additional observations from a re-analysis of the deposited data

How the results depend on the processing

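The number of models that met the rule (48) was 18 with library totals, 122 with a factor of 1.5, 11 with a factor of 3 and 29 with a largest group mean of 100 or more, and 57 to 148 when single libraries were left out. A looser or stricter limit changes the number by construction; for library totals the cause was not tested. The models called higher in Brood than in Honey (8) became 1 with library totals, 4 with DESeq2's Wald test, 2 with age as a covariate, 5 with limma on log2(FPKM + 1) and 4 with a pseudocount of 0.1, and 2 to 9 without single libraries. Those called lower (5) became 22 with library totals, 3 with age, 1 with the length trend removed, 3 with limma at a pseudocount of 0.1, and 3 to 5 without single libraries. The median log2 change (0.19) became -1.13, -0.32 and 0.48 with library totals, age and the length trend removed, beside -1.30, -0.03 and -0.08 over all models, and -0.036 to 0.35 without single libraries; the causes were not tested. A fit with a block for the replicate number gave 8 higher, 5 lower and a median of 0.23. The age fit used the same replicate difference as that block, because label age within a group follows the replicate number. It carried that difference across the groups, so its values do not isolate an effect of age. Deviations of same-numbered libraries correlated at -0.09, 0.15 and 0.04 between groups, so the numbers were not taken as pairs.

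The mean summed share (0.268% in Honey, 0.648% in Pollen, 0.120% in Brood) was 0.0477%, 0.188% and 0.0249% of summed FPKM. It was 0.209% and 0.103% in Honey and Brood without gene9831, 0.175%, 0.428% and 0.0804% without models that overlap another, and 0.162% and 0.184% in Honey and Brood of TMM-scaled totals, where Brood was above Honey. Of the single calls in Brood vs Honey, 141 values over 13 models and 16 alternatives kept the call, 62 lost it and 5 turned. Those that turned were gene1966 (-0.26), gene6454 (-0.36), gene9309 (-0.029) and gene9771 (-0.33) with library totals, where the median of all models was itself -1.30, and gene3265 (-0.18) with the length trend removed. In the fit without Pollen libraries 46 of the 48 passed the filter.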

Other observations

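Some models outside the 48 met the same factor of 2, and were picked here by it. Of 181 models added by the authors with the same floor, 4 had a lower Pollen library at least 2 times the highest other one. They lie on linkage group 1 at 320824 to 325840 (factor 3.17) and 13177891 to 13190961 (4.26) and on linkage group 10 at 2579575 to 2583235 (3.74) and 11802462 to 11808673 (3.60). The second had 38.1 and 27.3 scaled fragments in Honey, 192 and 185 in Pollen and 43.4 and 28.0 in Brood. A further 4 numbered models met the factor but were kept out by the limit of 10000 raw fragments, with factors from 2.52 to 121, and the model with the factor of 121 is listed at 0 in both Brood libraries.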
